A study of Mus musculus with 6 samples.

Results

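The genes described here are 50 mouse genes of mitosis, which build and move the spindle and separate the chromosomes, in 2 subsets of tumor-associated macrophages (TAMs). They were taken by symbol from a list of 50 names, and all 50 were found among the 23424 genes of the count tables. Both subsets came from wild-type, untreated female C57Bl/6J mice that received YUMM1.7 cells, a mouse melanoma line, in the skin at 8 weeks of age, and the tumors were taken on day 21. Live CD45+ CD11b+ F4/80+ cells were sorted by the level of F4/80, a macrophage surface protein encoded by *Adgre1*, into F4/80high and F4/80low TAMs, with a lineage-negative gate in the study's methods. The 3 libraries of a subset come from 3 independent experiments on 10 pooled tumors, so a library stands for a pool and not for 1 animal. Libraries with the same replicate number in both subsets were taken as a pair. The question asked here is whether the mRNA of the mitotic machinery differed between the subsets, over all libraries and pair by pair.

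Mitosis starts when cyclin-dependent kinase 1 (CDK1), bound to a cyclin, is switched on by removal of inhibitory phosphates. Polo and Aurora kinases then drive spindle assembly, condensin packs the chromosomes, and kinetochores on the centromeres capture microtubules. The spindle assembly checkpoint holds the anaphase-promoting complex (APC/C) back until every chromosome is attached, after which cyclin B and securin are destroyed, separase cuts cohesin, and the cell divides by a contractile ring. Most of these mRNAs are made only in the G2 and M phases, so their level in a bulk sample is widely read as a sign of dividing cells, and tumor macrophages can both divide locally and be replaced by blood monocytes.

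The 6 libraries held 16045281 to 43604373 counts, and the members had medians of 86.5 to 1777 counts per library. No member was at 0 or at 3 counts or fewer in any library, the lowest being 10 counts in F4/80low replicate 3. Replicates 1 and 2 of both subsets form batch 1 and replicate 3 of both forms batch 2, as the study draws them. Batch 2 was the shallower one, and up to 17.1% of its counts fell on *Lars2*, *Gm23935* and *Gm15564*, whose share in batch 1 was at most 0.609%. *Adgre1*, the gene of the sorting marker, measured 273, 539 and 360 CPM (counts scaled to a common normalized library size) in F4/80high replicates 1, 2 and 3 and 243, 327 and 183 CPM in F4/80low. It was higher in F4/80high in each pair, while the lowest F4/80high value lay below the highest F4/80low value.

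Mitotic genes measured mostly higher in F4/80high TAMs, but none passed the test. The log2 fold change, positive where F4/80high was higher, was above 0 for 46 of 50 members, against 50.8% of the 14645 genes tested, and its median was 0.41, against 0.01 over all genes. More dividing cells and more of these mRNAs per cell cannot be told apart in bulk RNA. In edgeR's quasi-likelihood test with batch as a term, 0 of 50 members were called at an adjusted p under 0.05 with an absolute log2 fold change above 1, where the background was 0.0% of all genes. Their adjusted p ran from 0.504 to 0.997. At an unadjusted p under 0.05, 8 members were higher in F4/80high, against a background of 3.28%, and 1 was higher in F4/80low, against 4.32%. The 8 were *Cdc25c*, *Cdca3*, *Kif23*, *Nusap1*, *Tacc3*, *Racgap1*, *Ncapd2* and *Ncaph*, and the 1 was *Cks2*. A replicate block in place of batch raised the first count to 13, against a background of 3.97%, with 1 lower against 5.95%. It left 45 members above 0 (49.5% of all genes) and called 76 genes of all (0.519%) but 0 members. DESeq2 with batch called 150 genes (1.02%), again with 0 members, and had 46 members above 0 (51.1% of all genes). It gave 10 members higher at an unadjusted p under 0.05 (background 4.08%) and 1 lower (background 5.34%).

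**Figure D1:**
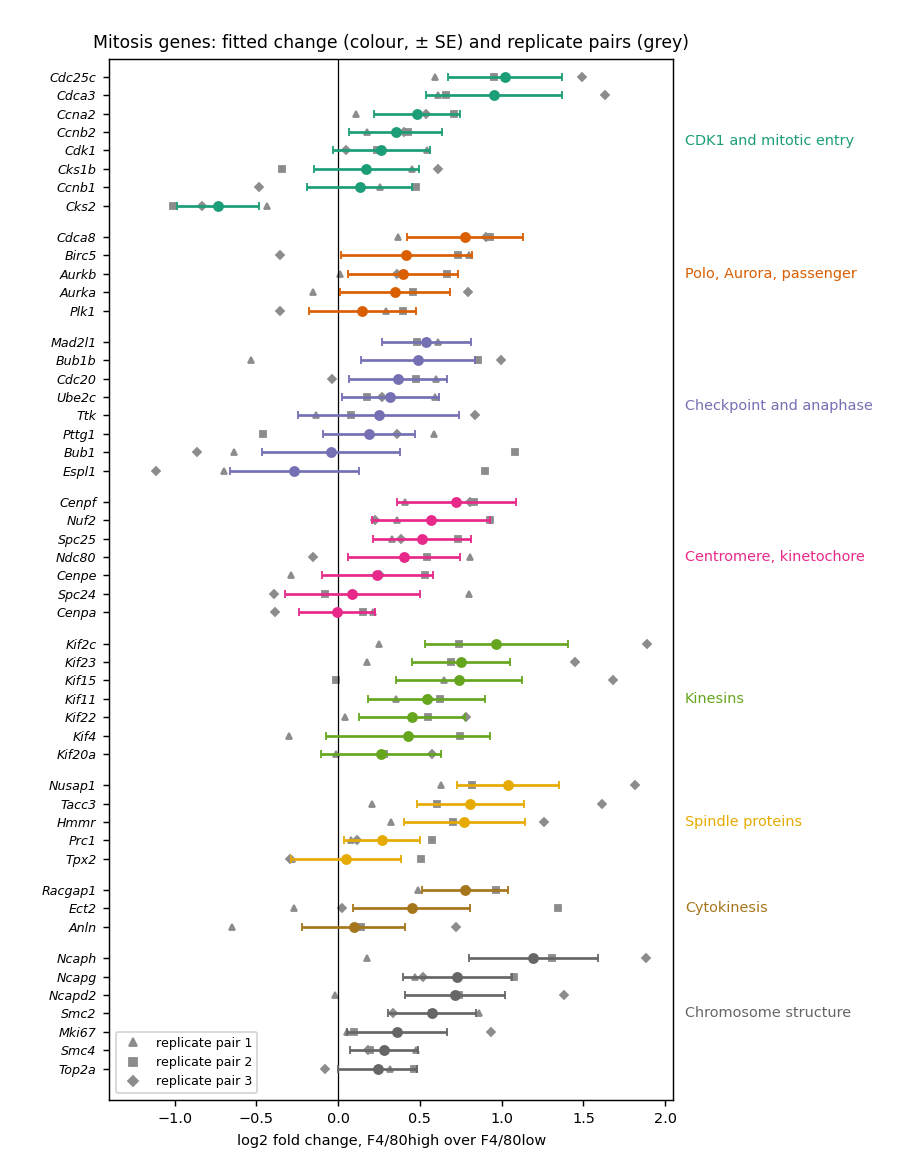
Fitted log2 fold change of each of the 50 mitosis genes (coloured point, bar ± SE, edgeR with batch) and the log2 ratio of F4/80high to F4/80low in each replicate pair (grey), by role. 46 fitted values lie above 0, *Ncaph* is the highest at 1.19 and *Cks2* the lowest at -0.73.

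The pairs gave the same order in 26 members, which were higher in F4/80high in 3 of 3 pairs, against a background of 16.0% of all genes. *Cks2* was the 1 member higher in F4/80low in 3 of 3 pairs, against a background of 15.9%. By pair, 37, 45 and 38 of 50 members were higher in F4/80high in pairs 1, 2 and 3, where all genes gave 50.9%, 46.6% and 48.7%. The median log2 ratio of the members was 0.28, 0.57 and 0.48 in the same order. All 3 F4/80high libraries lay above all 3 F4/80low libraries for *Ncaph*, *Kif23*, *Smc2* and *Mad2l1* only (4 of 50, background 2.3%), and the reverse held for *Cks2* (1 of 50, background 2.9%). For the other members the subsets overlapped.

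Per kilobase of gene length, which allows levels of different genes to be compared, the members ran from 0.781 CPM (*Ttk*) to 65.3 CPM (*Cks2*), with a median of 5.38, against a median of 4.21 over all genes tested. Of the members, 37 lay above that second median. After *Cks2* came *Smc4* at 44.9, *Cks1b* at 22, *Cenpa* at 21.8 and *Ccnb2* at 18.4 CPM per kilobase. The ranks of some depended on the batch. In the 4 batch 1 libraries *Cks1b* (29.5) and *Ccnb2* (22.5) stood above *Smc4* (20.3), and *Cenpa* had 12.6, while in batch 2 *Smc4* had 93.9 and *Cenpa* 40.1 CPM per kilobase.

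Among the 8 genes of CDK1 and mitotic entry, 7 were higher in F4/80high, with a median log2 fold change of 0.31. *Cdk1*, the kinase that drives entry into mitosis, measured 31.2, 42.7 and 10.5 CPM in F4/80high replicates 1, 2 and 3 and 21.4, 36.1 and 10.2 CPM in F4/80low. Each pair was higher in F4/80high, by 0.54, 0.24 and 0.05 on the log2 scale. The subsets overlapped, and the fit gave *Cdk1* a log2 fold change of 0.26 ± 0.30 (SE). Its partners *Ccna2*, *Ccnb1* and *Ccnb2*, which encode cyclins A2, B1 and B2, had values of 0.48 ± 0.26, 0.13 ± 0.32 and 0.35 ± 0.28. *Cdc25c*, whose product removes the inhibitory phosphates from CDK1, measured 6.59, 7.93 and 22.9 CPM in F4/80high and 4.34, 4.06 and 8.10 CPM in F4/80low. It was higher in each pair, by 1.02 ± 0.35 in the fit (adjusted p = 0.533), and F4/80high replicate 3 held the top value. *Cdca3*, which encodes a factor that helps degrade the CDK1 inhibitor WEE1, had 0.95 ± 0.42 and was higher in each pair, by 0.61, 0.66 and 1.63 on the log2 scale.

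The paralogs *Cks1b* and *Cks2* encode small CDK-binding proteins and did not share a direction. *Cks2*, on chromosome 13 from 51645232 to 51650660 of GRCm38 (GENCODE M21), measured 45.1, 28.5 and 28.4 CPM in F4/80high and 61.0, 57.4 and 50.8 CPM in F4/80low. The lowest F4/80low library exceeded the highest F4/80high library. The means were 34 ± 9.60 and 56.4 ± 5.19 CPM (SD, n = 3 each), and the log2 fold change was -0.73 ± 0.25 (adjusted p = 0.533). Leaving out any 1 library kept it negative, between -0.96 and -0.61. *Cks1b* had 0.17 ± 0.32, with pairs of 0.45, -0.34 and 0.61.

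Polo kinase, the Aurora kinases and the passenger complex (5 genes) were all on the F4/80high side, with a median of 0.40 and 0 at an unadjusted p under 0.05. *Plk1*, the Polo kinase of spindle assembly, measured 19.4, 29.96 and 4 CPM in F4/80high and 15.8, 22.8 and 5.13 CPM in F4/80low, and pair 3 went the other way (log2 fold change 0.15 ± 0.33). *Birc5*, or survivin, which brings Aurora B to centromeres, measured 32.2, 62.1 and 8.65 CPM against 18.4, 37.4 and 11.1 CPM, with the same split among pairs (0.42 ± 0.40). *Cdca8*, or borealin, a further passenger subunit, measured 21.6, 45.7 and 4.32 CPM against 16.7, 23.9 and 2.28 CPM and was higher in each pair (0.78 ± 0.35, adjusted p = 0.677). The kinase genes *Aurka* and *Aurkb* had 0.35 ± 0.34 and 0.40 ± 0.34. In all 5 genes the replicate 3 libraries of both subsets lay below the other 4, and the fitted difference between batches exceeded that between subsets.

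The 8 genes of the checkpoint and of anaphase onset were the most mixed, with 6 higher and 2 lower and a median of 0.28. *Mad2l1*, the checkpoint protein that inhibits CDC20, measured 25.4, 34.3 and 34.5 CPM in F4/80high and 16.6, 24.6 and 23.6 CPM in F4/80low. The subsets did not overlap, the pairs were near each other at 0.61, 0.48 and 0.54 on the log2 scale, and the fit gave 0.54 ± 0.27 (adjusted p = 0.693). *Pttg1*, which encodes securin, the inhibitor of separase, measured 49.8, 28.9 and 19.4 CPM against 33.1, 39.8 and 15.1 CPM, with pair 2 reversed (0.19 ± 0.28). *Espl1*, which encodes separase itself, measured 12.2, 22.6 and 9.84 CPM against 19.8, 12.1 and 21.3 CPM. Here pairs 1 and 3 were lower in F4/80high and pair 2 was higher (-0.27 ± 0.40). The kinase gene *Bub1* showed the same split, with pairs of -0.63, 1.08 and -0.86. *Bub1b*, *Ttk*, *Cdc20* (the APC/C activator) and *Ube2c* (its ubiquitin-conjugating enzyme) had 0.49 ± 0.35, 0.25 ± 0.49, 0.37 ± 0.30 and 0.32 ± 0.30.

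Of 7 centromere and kinetochore genes, 6 were higher, with a median of 0.40. *Cenpa*, the histone H3 variant that marks centromeres, measured 71.9, 85.5 and 204 CPM in F4/80high and 62.0, 76.9 and 267 CPM in F4/80low. Pairs 1 and 2 were slightly higher and pair 3 lower in F4/80high, and the fitted value was -0.01 ± 0.23. *Cenpf*, a large protein of the outer kinetochore, measured 15.8, 33.1 and 7.24 CPM against 11.8, 18.6 and 4.11 CPM and was higher in each pair (0.72 ± 0.37, adjusted p = 0.694). The 4 subunits of the NDC80 complex, the microtubule anchor, were not alike. *Nuf2* (0.57 ± 0.36) and *Spc25* (0.51 ± 0.30) were higher in 3 of 3 pairs, while *Ndc80* (0.40 ± 0.34) and *Spc24* (0.09 ± 0.41) were higher in F4/80low in at least 1 pair. *Cenpe*, a kinetochore motor, had 0.24 ± 0.34.

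All 7 kinesins, the motors that slide, cross-link or shorten microtubules, had a log2 fold change above 0, with a median of 0.54. *Kif23*, the motor of the centralspindlin complex, measured 26.8, 31.9 and 26.6 CPM in F4/80high and 23.8, 19.8 and 9.70 CPM in F4/80low. The F4/80high libraries lay in a narrow band above all F4/80low libraries, with means of 28.4 ± 2.99 and 17.7 ± 7.25 CPM (SD, n = 3 each) and 0.75 ± 0.30 in the fit (adjusted p = 0.621). *Kif2c*, a microtubule depolymerase at centromeres, measured 10.7, 23.0 and 12 CPM against 8.96, 13.8 and 3.19 CPM (0.97 ± 0.44), higher in each pair but with overlap. *Kif20a*, a motor of cytokinesis, measured 9.77, 13.1 and 1.73 CPM against 9.87, 10.8 and 1.14 CPM, with no step in pair 1 (0.26 ± 0.37). *Kif11*, which pushes the spindle poles apart, *Kif15*, *Kif22* and *Kif4* had 0.54 ± 0.36, 0.74 ± 0.39, 0.45 ± 0.33 and 0.43 ± 0.50.

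The 5 genes of spindle proteins had the highest median of the role groups, 0.77. *Nusap1*, which bundles microtubules around chromosomes, lies on chromosome 2 from 119618298 to 119651244. It measured 30.2, 32.1 and 9.41 CPM in F4/80high and 19.5, 18.2 and 2.62 CPM in F4/80low. Both batches held the same order, the log2 ratios of the pairs were 0.63, 0.82 and 1.82, and the fit gave 1.04 ± 0.31, the lowest adjusted p of the members at 0.504. *Tacc3*, which stabilizes kinetochore fibers, measured 28.1, 44.3 and 34.7 CPM against 24.4, 29.2 and 11.3 CPM. All pairs were higher, pair 3 the most, and only F4/80high replicate 1 lay below a library of F4/80low (0.81 ± 0.33, adjusted p = 0.628). *Tpx2*, the activator of Aurora A, measured 20.7, 45.3 and 15.0 CPM against 25.2, 31.9 and 18.5 CPM, with F4/80high higher in pair 2 and lower in pairs 1 and 3 (0.05 ± 0.33). *Hmmr*, a spindle-binding protein, and *Prc1*, the cross-linker of the midzone, had 0.77 ± 0.37 and 0.27 ± 0.23 and were higher in each pair.

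Cytokinesis was represented by 3 genes. *Racgap1*, the partner of KIF23 in centralspindlin, measured 55.8, 94.4 and 33.3 CPM in F4/80high and 39.8, 48.3 and 19.3 CPM in F4/80low. Each pair was higher, by 0.49, 0.97 and 0.79 on the log2 scale, and the fit gave 0.78 ± 0.26 (adjusted p = 0.533). Both subunits of centralspindlin thus had values near each other and an unadjusted p under 0.05. *Anln*, which encodes the ring scaffold anillin, measured 20.6, 36.1 and 23.6 CPM against 32.3, 32.7 and 14.3 CPM, with pair 1 reversed (0.10 ± 0.32). *Ect2*, the activator of RhoA at the ring, had 0.45 ± 0.36, with pairs of -0.27, 1.35 and 0.02.

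The 7 genes of chromosome structure were all on the F4/80high side, with a median of 0.58. *Mki67*, the proliferation marker that coats mitotic chromosomes, measured 48.6, 77.4 and 86.5 CPM in F4/80high and 46.8, 72.4 and 45.3 CPM in F4/80low. Pairs 1 and 2 differed by 0.06 and 0.10 on the log2 scale, pair 3 by 0.93, and the fit gave 0.36 ± 0.30 (adjusted p = 0.790). *Top2a*, the topoisomerase that untangles sister chromatids, measured 58.4, 80.5 and 136 CPM against 46.8, 58.3 and 144 CPM (0.24 ± 0.24). Both standard markers of dividing cells thus lay below the median difference of the list.

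The condensin members other than *Smc4* lay above that median. *Ncaph*, a condensin I subunit on chromosome 2 from 127103809 to 127133954, measured 18.7, 46.4 and 21.2 CPM in F4/80high and 16.6, 18.7 and 5.70 CPM in F4/80low. The subsets met at 18.7 CPM without overlapping, the pairs were 0.17, 1.31 and 1.88, and 1.19 ± 0.39 was the highest log2 fold change of the members (adjusted p = 0.524). *Smc4*, a core ATPase of both condensins, measured 118, 118 and 520 CPM against 85.2, 103 and 458 CPM, so that replicate 3 lay far above the rest in both subsets (0.28 ± 0.21). *Smc2*, *Ncapd2* and *Ncapg*, the remaining condensin members, had 0.58 ± 0.27, 0.71 ± 0.30 and 0.73 ± 0.33.

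**Figure D2:**
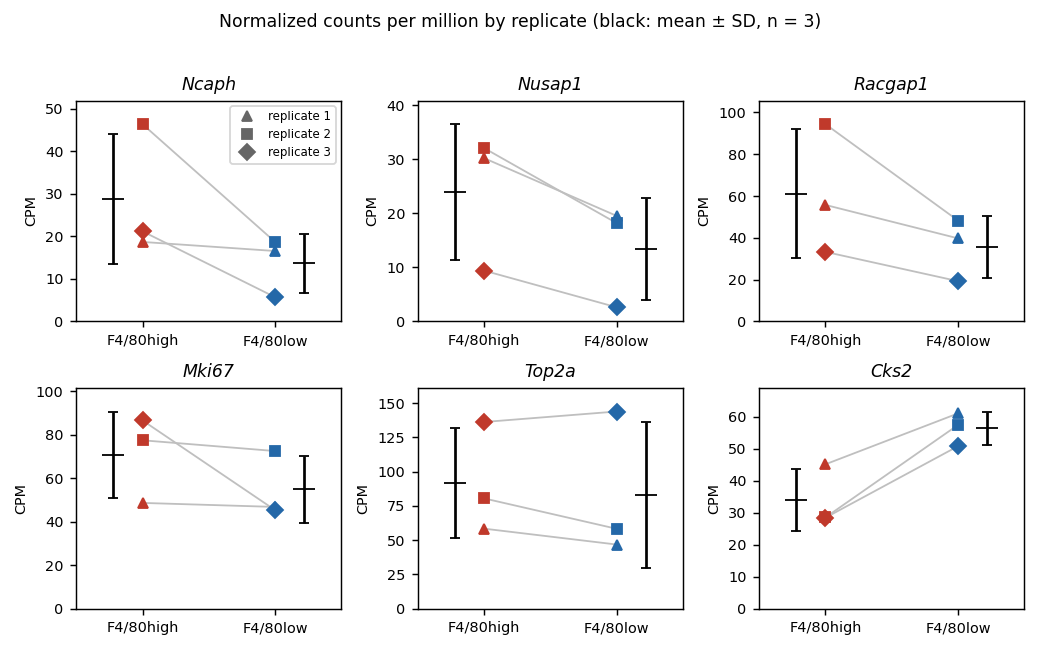
CPM of 6 mitosis genes in each library, joined by replicate pair, with F4/80high in red and F4/80low in blue and the mean ± SD in black (n = 3). *Ncaph*, *Nusap1* and *Racgap1* are higher in F4/80high in each pair, *Cks2* is lower in each, *Mki67* differs little in pairs 1 and 2, and *Top2a* is slightly lower in F4/80high in pair 3.

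The batch moved the members more than the subset did. In the same fit, 27 of 50 members differed between batches at an adjusted p under 0.05 by edgeR. Of these, 6 were higher in batch 2, against a background of 20.0% of all genes, and 21 were lower, against 22.7%. The 6 were *Smc4* (log2 difference 2.21 ± 0.21), *Ect2* (2.11 ± 0.36), *Cenpa* (1.67 ± 0.24), *Kif11* (1.42 ± 0.36), *Cdc25c* (1.32 ± 0.36) and *Top2a* (1.22 ± 0.25). The lowest values were those of *Kif22* (-3.17 ± 0.41), *Cdca8* (-3.05 ± 0.44) and *Kif20a* (-2.93 ± 0.46). All 5 genes of the Polo, Aurora and passenger group were lower in batch 2, with a median of -2.77, while the chromosome structure group had a median of 0.05 and members on both sides. The absolute batch value exceeded the absolute subset value in 38 of 50 members, and the share over all genes is not given. The median absolute batch value was 1.21 over the members and 1.22 over all genes tested, so its absolute size was not particular to the members. The members were more often lower in batch 2 than genes at large, 39 of 50 against 57.6% of all genes tested. Their median signed batch value was -1.08, against -0.35 over all genes. Across the 50 members the batch value went with gene length (Spearman rho 0.33, with no test since the genes share 6 libraries), as it did across all genes tested (0.38).

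**Figure D3:**
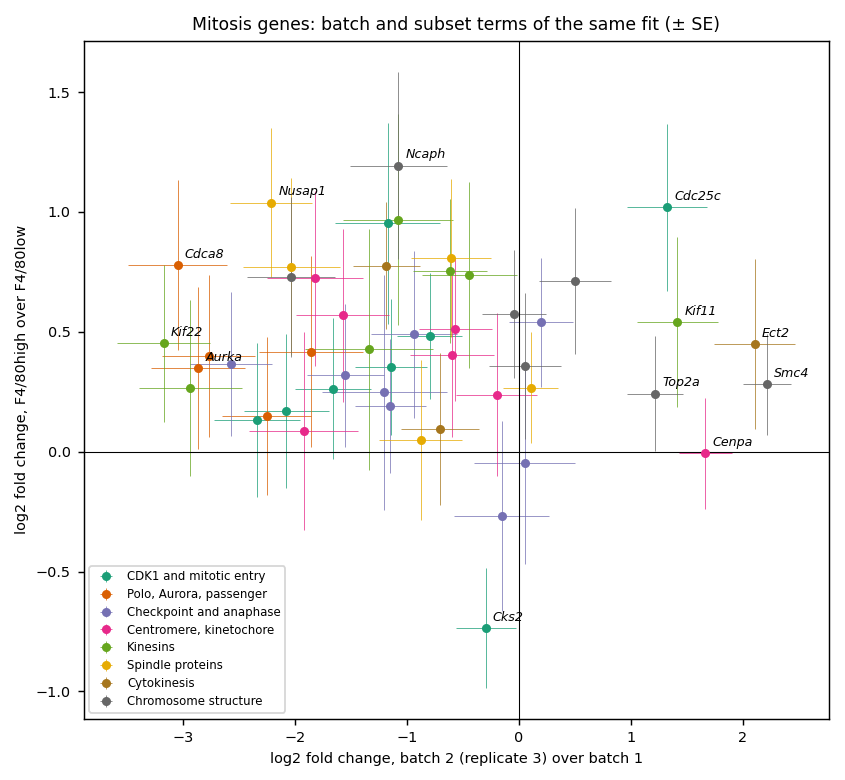
Batch term (replicate 3 over replicates 1 and 2, horizontal) and subset term (vertical) of the same edgeR fit for the 50 mitosis genes, each ± SE and coloured by role. The horizontal spread, from -3.17 to 2.21, is wider than the vertical one, from -0.73 to 1.19.

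Within batch 1, F4/80high replicate 2 stood out. It held the highest value of all 6 libraries in 36 of 50 members, and of the 4 batch 1 libraries in 44. At the other end, F4/80low replicate 3 held the lowest value in 29 members. Replicate 2 exceeded replicate 1 in 46 members in F4/80high and in 39 in F4/80low, and F4/80low replicate 2 exceeded F4/80high replicate 1 in 31. A library of F4/80low therefore often exceeded a library of F4/80high with another replicate number. The same counts over all genes are not given, so these counts cannot be read as a trait of the members. F4/80high replicate 2 was also the library with the highest sum of 7 macrophage markers, 20981 CPM against 5994 to 9671 CPM in the other 5, of which *Lyz2* gave 16127 CPM. The part of this in the result was not tested.

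**Figure D4:**
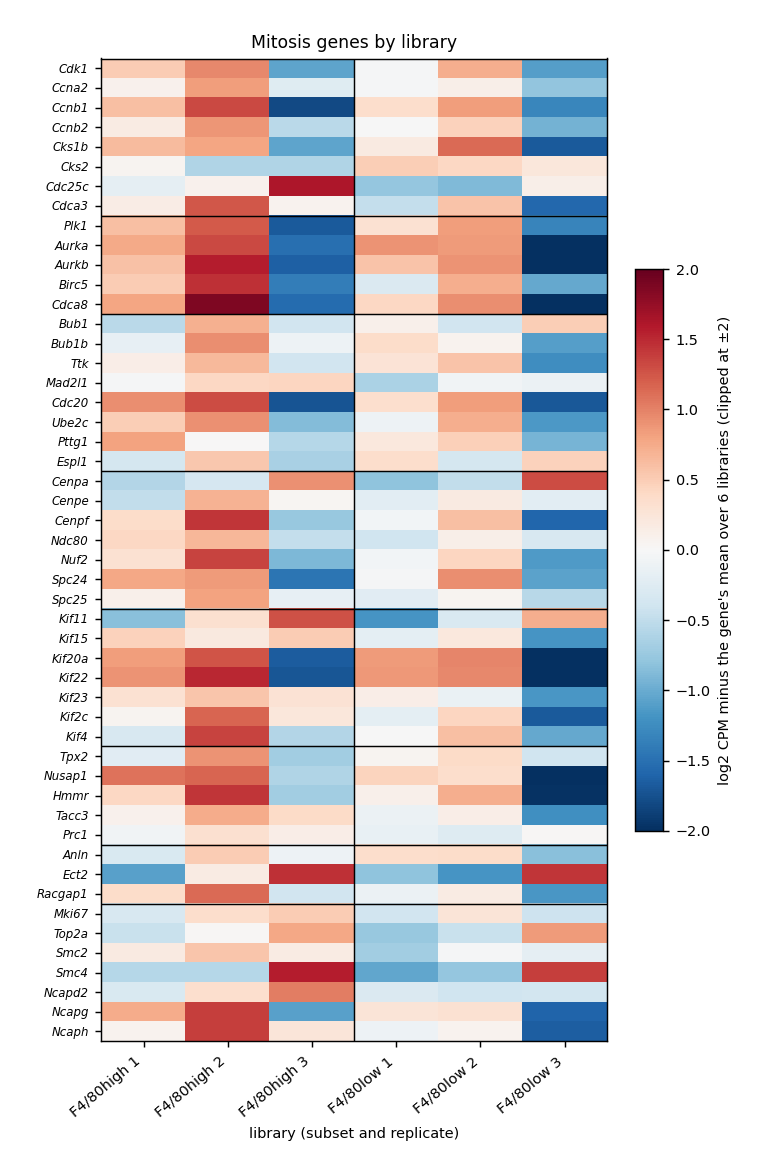
Log2 CPM of each mitosis gene in each library minus its mean over the 6 libraries, clipped at 2 in either direction, with roles separated by lines in the order CDK1, kinases, checkpoint, kinetochore, kinesins, spindle, cytokinesis, chromosome structure. F4/80high replicate 2 is the highest library in 36 of 50 rows, and F4/80low replicate 3 is the lowest in 29. The same counts over all genes are not given.

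Summed over the 50 members, F4/80high replicates 1, 2 and 3 held 1304, 1910 and 1746 CPM and F4/80low held 1108, 1389 and 1500 CPM. F4/80high was higher in each pair, by 1.18, 1.38 and 1.16 times, and the subsets overlapped. The means were 1653 ± 313 and 1332 ± 202 CPM (SD, n = 3 each), a ratio of 1.24. *Smc4* made up 29.8% and 30.6% of the sum in the batch 2 libraries and 6.16% to 9.08% in batch 1. Without it the ratio was 1.25. The geometric mean over members, in which each gene weighs the same, gave 1.16, 1.44 and 1.42 by pair and 1.33 overall.

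The size of the difference depended on which library was left out. Without F4/80high replicate 2, 37 of 50 members were higher (47.9% of all genes), the median log2 fold change was 0.16 and 2 members were higher at an unadjusted p under 0.05, against a background of 3.07%. Without F4/80high replicate 1, 47 members were higher (47.5% of all genes), the median was 0.63 and that count was 15, against a background of 5.74%. It was 0 without F4/80high replicate 3 (background 1.18%), without F4/80low replicate 3 (1.26%) and with no batch term (0.608%). The count was 4 without F4/80low replicate 1 (1.97%) and 1 within batch 1 alone (1.32%). Without either replicate 3 library, batch 2 held only 1 library, which the batch term took up. The subset comparison then rested on batch 1, so those fits and the fit of batch 1 alone are not separate checks. The median stayed above 0 in each of these fits. In a fit added after the data were seen, without replicate 1 of both subsets and with the replicate block, 1 member was called, *Ncaph* at 1.58 (adjusted p = 0.0159).

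Markers of other cell types were present in the sorted cells and differed between subsets. Over all genes tested, 3.28% were higher and 4.32% lower in F4/80high at an unadjusted p under 0.05. All 8 T and NK cell markers were higher in F4/80high (2 at an unadjusted p under 0.05), and their summed level ran from 249 to 1758 CPM in F4/80high and from 106 to 806 CPM in F4/80low. By pair the sums were 1758 against 616, 522 against 806 and 249 against 106 CPM, higher in F4/80high in pairs 1 and 3 and lower in pair 2. All 6 neutrophil markers (5 at an unadjusted p under 0.05) and all 5 eosinophil markers (4) were lower in F4/80high, with neutrophil sums of 438 to 1630 CPM against 964 to 3308 CPM and eosinophil sums of 88.2 to 175 CPM against 245 to 591 CPM. Fibroblast sums were 438 to 1528 CPM against 1048 to 1891 CPM, with all 6 markers lower in F4/80high (1 at an unadjusted p under 0.05), and the B and plasma, erythroid, endothelial, dendritic, mast and basophil, and keratinocyte lists held at most 414 CPM each. Of 7 melanoma markers, *Tyr*, *Tyrp1* and *Dct* were not among the genes of the count tables. *Mlana* held 0 counts in 5 libraries and 1 in F4/80low replicate 1, and *Pmel* and *Sox10* stayed at most at 1.82 CPM. The 3 tested, *Pmel*, *Sox10* and *Mitf*, had a log2 fold change above 0, 1 of them at an unadjusted p under 0.05. *Mitf*, which macrophages also express, had 16.5, 21.6 and 167 CPM in F4/80high and 13.3, 11.4 and 104 CPM in F4/80low. All 7 macrophage markers were measured in every library, with 4 higher and 3 lower in F4/80high. The part of RNA from these other cells in the result was not tested.

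Other genes of the cell cycle were read in the same fit, with lists also chosen with earlier results known. Of 71 other mitosis genes, 54 were higher, against 50.8% of all genes tested, with a median of 0.36. At an unadjusted p under 0.05, 9 were higher (background 3.28%) and 0 lower (background 4.32%). *Cenpu*, a subunit of the inner kinetochore, and *Kif14*, a kinesin of cytokinesis, had the highest values at 1.71 ± 0.74 and 1.52 ± 0.74, both at levels of at most 3.96 CPM in any library. *Depdc1b* and *Kifc1*, a minus-end motor, had the lowest at -0.995 ± 0.90 and -0.42 ± 0.52.

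Genes of S phase behaved much like the mitosis genes. Of 38 DNA replication genes, 31 were higher, against 50.8% of all genes tested. Their median was 0.42, with pair medians of 0.40, 0.38 and 0.43. At an unadjusted p under 0.05, 8 were higher (background 3.28%) and 0 lower (background 4.32%). *Mcm2*, a subunit of the replicative helicase, measured 46.4, 57.7 and 20.4 CPM in F4/80high and 33.7, 33.9 and 6.73 CPM in F4/80low. It was higher in each pair (0.92 ± 0.28, adjusted p = 0.504). *Pola1*, the catalytic subunit of the priming polymerase, had 1.29 ± 0.48, while *Rfc3* and *Orc1* were lowest at -0.16 ± 0.54 and -0.10 ± 0.60. The 15 regulators of G1 and S had a median of 0.17, and their cyclins differed from each other. *Ccne1* (cyclin E1) had 1.31 ± 0.54 and *Ccnd3* (cyclin D3), lower in each pair, had -0.68 ± 0.27.

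Genes that are expressed through the whole cycle or that restrain it did not share the direction. The APC/C is regulated through its activators rather than its own mRNA. Its 15 listed genes, the subunits and the activator *Fzr1*, had 7 higher and 8 lower and a median of -0.05. The 9 cohesin genes had 3 higher and a median of -0.08. Of 15 cell cycle brakes, 6 were higher and 9 lower, with a median of -0.24, and 3 were lower at an unadjusted p under 0.05 against a background of 4.32% (5 with the replicate block, background 5.95%). *Ccng2*, an atypical cyclin linked to cell cycle exit, measured 110, 79.5 and 53.4 CPM in F4/80high and 171, 116 and 163 CPM in F4/80low. The subsets did not overlap, and the log2 fold change was -0.93 ± 0.30 (adjusted p = 0.524). *E2f4* did not overlap in the other direction, with 82.0, 75.0 and 81.1 CPM against 71.2, 68.3 and 67.1 CPM (0.20 ± 0.21). Each was 1 of 15 brakes, against backgrounds of 2.9% and 2.3%. *Cdkn2b* had -0.86 ± 1.05, and *Rbl1* and *Cdkn2c* were at the other end with 0.47 ± 0.30 and 0.40 ± 0.25. *Btg2* had the lowest unadjusted p of the brakes in edgeR with batch. It was lower in F4/80high in each pair, with -0.84 ± 0.23 (adjusted p = 0.491). No gene of these lists was called by edgeR with batch, with the replicate block, or by DESeq2 with batch. The lowest adjusted p among the brakes was 0.0329 in DESeq2 with batch, where no brake passed both limits of a call.

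**Figure D5:**
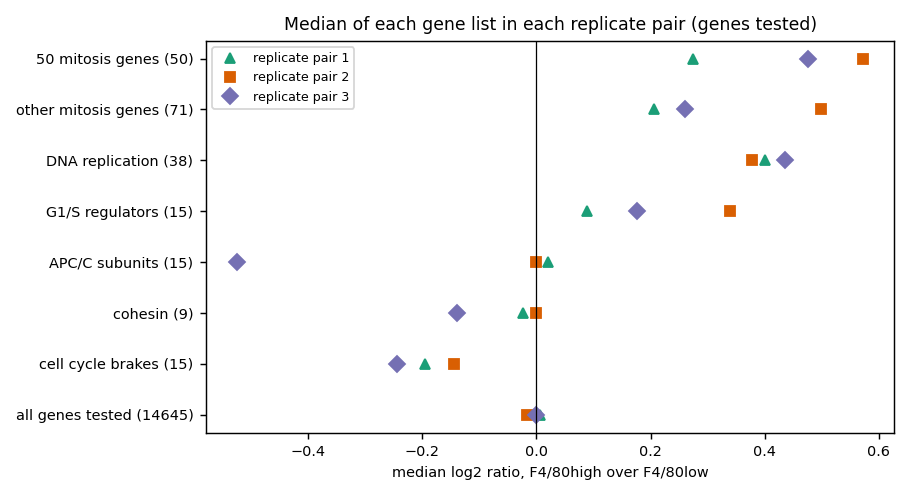
Median log2 ratio of F4/80high to F4/80low in each replicate pair for the 50 mitosis genes, 6 other lists and all 14645 genes tested, with the number of genes in parentheses. The mitosis genes (0.28, 0.57 and 0.48) and the replication genes (0.40, 0.38 and 0.43) lie above 0 in each pair, and the brakes lie below 0 in each.

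Promoters of mitotic genes are known to share a cell cycle genes homology region (CHR), bound by the DREAM and MYB-MuvB complexes, and CCAAT boxes, bound by NF-Y. CHR matches (TTTGAA or TTCGAA, both strands) and CCAAT (both strands) were searched in RefSeq windows (GRCm38.p6) from 250 bases before to 50 bases after the annotated start, which held 43 of 50 members in 45 windows. CHR letters stood in 77.8% of member windows and in 19.2% of all 32851 windows, and CCAAT in 75.6% and 37.4%. Both were present in 68.9% and 7.52%. A CHR match within 50 bases of the start was found in 71.1% of member windows and 5.31% of all, and a pair of CCAAT matches 31 to 34 bases apart in 20% and 1.20%. The stretches below run from 130 bases before the start through the first 30 bases from it on, 5′ to 3′ on the gene's strand, with CHR and CCAAT matches in capitals. They show *Cdk1*, *Ccnb2* and *Hmmr* for the full arrangement and the centralspindlin pair *Kif23* and *Racgap1*. They also show *Cks2*, the member with the lowest log2 fold change.
Cdk1, chr10:69352883-69353042, minus strand: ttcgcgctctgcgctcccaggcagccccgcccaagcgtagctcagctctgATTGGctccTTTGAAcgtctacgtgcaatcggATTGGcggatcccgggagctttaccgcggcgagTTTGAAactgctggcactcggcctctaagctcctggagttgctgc
Ccnb2, chr9:70421525-70421684, minus strand: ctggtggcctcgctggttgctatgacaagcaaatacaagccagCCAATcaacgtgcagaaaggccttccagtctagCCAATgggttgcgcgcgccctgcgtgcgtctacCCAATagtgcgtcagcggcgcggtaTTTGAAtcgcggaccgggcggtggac
Hmmr, chr11:40733408-40733567, minus strand: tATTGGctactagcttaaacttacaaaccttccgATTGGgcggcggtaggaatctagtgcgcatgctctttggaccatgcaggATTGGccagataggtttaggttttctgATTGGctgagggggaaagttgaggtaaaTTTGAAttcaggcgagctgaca
Kif23, chr9:61946770-61946929, minus strand: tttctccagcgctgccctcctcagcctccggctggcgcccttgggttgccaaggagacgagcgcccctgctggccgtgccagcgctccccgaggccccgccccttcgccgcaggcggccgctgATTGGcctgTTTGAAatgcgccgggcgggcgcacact
Racgap1, chr15:99651627-99651786, minus strand: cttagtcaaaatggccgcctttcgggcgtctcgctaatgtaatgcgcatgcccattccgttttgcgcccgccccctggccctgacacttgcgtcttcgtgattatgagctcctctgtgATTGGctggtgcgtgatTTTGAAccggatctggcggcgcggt
Cks2, chr13:51645102-51645261, plus strand: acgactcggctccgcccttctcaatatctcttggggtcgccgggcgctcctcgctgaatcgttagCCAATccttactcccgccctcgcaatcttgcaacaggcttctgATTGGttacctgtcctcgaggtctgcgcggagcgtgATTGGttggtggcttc

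The start is the base after the first 130 letters. In *Cdk1* CHR matches began 71 and 15 bases before it, with CCAAT matches 80 and 48 bases before. *Ccnb2* held CCAAT matches 87, 54 and 21 bases before the start and a CHR match 4 bases past it. Outside the stretches, the *Cdk1* window held a CCAAT match 208 bases before the start. The *Ccnb2* window held a further CHR match 167 bases before it. *Hmmr* had CCAAT letters at 5 places in its window and a CHR match 8 bases past the start. *Kif23* had 1 CCAAT match 7 bases before the start and 1 CHR match 2 bases past it. *Racgap1* had the same short layout, with CCAAT 12 bases before and CHR 5 bases past the start. *Cks2* held CCAAT letters at 4 places and no CHR letters in the whole window.

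The letters did not order the members by subset. The 33 members with CHR letters had a median log2 fold change of 0.43, with 30 higher, and the 10 without had 0.48, with 9 higher. *Ncaph* and *Nusap1*, with the highest fold changes of the list, held neither match in their windows. In windows of other lists, CHR letters stood in 52.5% of 61 windows of other mitosis genes and 17.6% of 34 of replication genes. They stood in 16.7% of 6 of cohesin genes and 11.8% of 17 of APC/C genes. The shares with CCAAT letters were 65.6%, 58.8%, 66.7% and 41.2% in the same order.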

How the data were processed

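Poly-A RNA of 6 sorted samples was sequenced, and the authors deposited raw read counts per gene, with gene lengths, one table per library. Their sequencing center aligned and counted the reads. The aligner, counting rule, strand use and annotation are not given in the sources used here. Since strand use is unknown, 15 members that share exon bases with another gene (such as *Nusap1* with *Oip5*, or *Tacc3* with *Tmem129*) may hold its reads. Reads from near-identical copies were not assessed.

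The counts were fitted with edgeR 4.0.16 under R 4.3.3 (quasi-likelihood test, TMM, terms for batch and subset) on 14645 protein-coding genes (GENCODE M21) with at least 10 counts over 6 libraries, with Benjamini-Hochberg adjustment over all of them. For the pair ratios, a prior count of 2 was added before taking log2 CPM. Alternatives were DESeq2 1.42.0, the replicate block, no batch term, other scalings and filters, and leaving out libraries. Steps were tested on simulated data.

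The members and lists were chosen with earlier results of these data known, and the position and spacing limits of motifs after the matches were seen. Values in each library are given for *Mki67*, *Top2a*, *Cdk1* and, in each role, for the member with the highest level per kilobase and those with the largest and the smallest log2 fold change. Of each other list, the 2 largest and 2 smallest changes with at least 10 counts in every library of one subset are eligible for naming. In addition, *Btg2*, *E2f4* and *Fzr1* were named. Marker lists of 12 cell types were read.

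The study names 3 independent experiments without tying them to replicate numbers, so libraries were paired by the number in their labels. Once the subset means were removed, same-numbered libraries correlated at 0.745, 0.729 and 0.907 over 10072 genes. The step between batches is part of these values, and differently numbered libraries within batch 1 gave 0.612 and 0.633. With batch 1 taken alone, same-numbered libraries correlated at 0.242. The total counts per library, 16045281 to 43604373, set the precision, and 3 counts correspond to 0.0688 to 0.187 CPM.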

Additional observations from a re-analysis of the deposited data

How the results depend on the processing

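The median log2 fold change of the 50 members stayed above 0 in every fit run. Leaving out 1 library moved it between 0.16 and 0.63, the number of members higher at an unadjusted p under 0.05 between 0 and 15, the number lower between 0 and 1, and the genes called over all genes between 0 and 77. Leaving out either replicate 3 library left the subset comparison to batch 1 alone. Genes called over all genes numbered 150 with DESeq2, 76 with the replicate block in edgeR and 356 with it in DESeq2. They numbered 23 with the block without batch 2, 66 without replicate 2 of both subsets and 378 without replicate 1 of both, which are fits chosen after seeing the data and the last of which called 1 member. Members higher at an unadjusted p under 0.05 numbered 0 with no batch term, 13 with the block, 1 without batch 2, 4 without batch 2 with the block and 4 without replicate 2 of both subsets. Those lower numbered 0 with no batch term, 0 without batch 2 and 2 without replicate 2 of both. The block otherwise changed no call of a member.

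In the other lists, leaving out 1 library moved the genes at an unadjusted p under 0.05 that were higher between 1 and 17 for other mitosis genes, 0 and 9 for replication genes, 0 and 2 for G1 and S regulators and 0 and 1 for brakes. Those lower moved between 0 and 1 for APC/C genes and for G1 and S regulators. For brakes they moved between 1 and 5, and they numbered 5 with the block.

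Of 460 comparisons of single genes with an alternative, 29 turned the direction, none of them called. Leaving out 1 library put *Plk1* between -0.16 and 0.35, *Birc5* between -0.045 and 0.76, *Pttg1* between -0.044 and 0.38, *Espl1* between -0.72 and 0.12, *Cenpa* between -0.17 and 0.18, *Tpx2* between -0.43 and 0.28 and *Anln* between -0.20 and 0.39. Without batch 2, *Espl1* was 0.12 (0.10 with the block), *Cenpa* 0.18 (0.19) and *Anln* -0.20 (-0.25). With the block and without replicate 2 of both subsets, *Plk1* was -0.040, *Tpx2* -0.33 and *Anln* -0.024, and without replicate 1 of both, *Pttg1* was -0.064. *Cenpa* was 0.032 with library size alone and 0.015 with all biotypes, and *Tpx2* was -0.018 with the block in edgeR and -0.015 in DESeq2. The cause of these changes was not tested. With 3 libraries per subset the standard errors of the members were 0.21 to 0.50, and no member passed after adjustment in the fits planned.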
